A study of Mus musculus with 10 samples.

Results

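c-Jun was deleted in 3 of the 5 genotypes of this series of mouse brain transcriptomes, and the libraries of those genotypes were set against the libraries in which cJun was left intact. The cJun-deleted side holds 6 libraries of the series' 10, 2 each labelled COP1/cJun double knockout (DKO), COP1/cJun/ETV1 triple knockout (TKO) and COP1/cJun/ETV1/ETV5 quadruple knockout (QKO). The cJun-intact side holds the other 4 libraries, 2 labelled COP1 heterozygous control (control) and 2 labelled COP1 knockout (KO). The sides were taken from the genotype labels alone, and no measured value chose a library. All RNA came from embryonic brains at stage E18.5 with the olfactory bulbs taken off. Every library carries at least 1 altered COP1 allele, all 6 deleted libraries also lack COP1, and 4 of them lack ETV factors. The 2 sides therefore differ in COP1 and ETV status as well as in cJun, and only KO against DKO differs by cJun alone. The labels give neither the strain, the sex, the litter, the deleted exons nor the promoter of any Cre driver. Libraries are numbered within a genotype in accession order, and the number pairs nothing.

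c-Jun is a basic leucine zipper protein. It pairs with other Jun, Fos or ATF proteins to form the transcription factor AP-1, which binds short palindromic DNA sites and is switched on by phosphorylation through the JNK kinases. COP1 is the substrate-binding part of a ubiquitin ligase that marks c-Jun and the PEA3-type ETS factors ETV1, ETV4 and ETV5 for destruction, so these proteins accumulate when COP1 is lost. In the developing brain, AP-1 is best known from glial cells and injured neurons, and the late embryonic brain is when radial glia, the stem cells that line the ventricles, turn from making neurons to making astrocytes and oligodendrocyte precursors.

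Library totals ran from 31996944 to 54594523 counts. Control 1 and DKO 1 had high Xist and no Uty count and the other 8 libraries the reverse, so each side held 1 library with the female pattern. Summed markers of neurons spanned 2072 to 2192 normalised RPKM (nRPKM, the authors' RPKM, reads scaled by gene length and depth, after a further size factor) on the intact side and 2064 to 2315 on the deleted side. Radial glial markers summed to between 860 and 910 nRPKM and between 796 and 870. No marker list had all its members at 0. The 17 HOX genes, which mark hindbrain and spinal cord, summed to 13.6 and 19.3 nRPKM in control and to 1.81 and 0.774 in KO. The intact genotypes thus differed in these genes. In the deleted libraries the HOX sum ran from 1.94 to 14.0. The 8 pituitary markers reached 220 nRPKM in DKO 1 and 61.5 in QKO 1, against 3.42 or less in the intact libraries.

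Jun itself separated the sides (Entrez gene 16476, on chromosome 4). It stood at 14.988 and 14.996 nRPKM in control, at 16.1 and 15.3 in KO, and between 1.44 and 2.94 (median 1.60) in the deleted libraries. No library of one side came near the other, and the remaining signal was highest in DKO 1. The fitted log2 fold change of the mean of DKO, TKO and QKO against the mean of control and KO was -3.06 ± 0.13 (SE), an 8.34-fold reduction, with an adjusted p of 1.04e-06 in edgeR's quasi-likelihood test. Jun was called (adjusted p under 0.05, Benjamini-Hochberg over all genes tested) in each of the 10 fits that left out 1 library.

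The other targeted genes did not separate the sides. Cop1 read 4.9995 and 4.74 nRPKM in control, 3.84 and 4.16 in KO, and 3.57 to 4.39 (median 4.09) after cJun deletion, with a log2 fold change of -0.12 ± 0.06 (edgeR adjusted p = 0.57). Etv1 stood at 4.82 and 4.95 nRPKM in control and 1.76 and 2.29 in KO, and on the deleted side at 1.98 and 2.11 in DKO, 3.80 and 3.67 in TKO, and 4.71 and 4.38 in QKO. The libraries labelled as lacking ETV1 thus held more Etv1 reads than DKO, so whole-gene counts do not check those labels. Etv5 lay between 6.72 and 7.24 in control, between 2.65 and 2.68 in KO, and between 3.08 and 4.11 (median 3.84) in the deleted libraries. Etv4, a PEA3 factor that no genotype targets, ran from 1.59 to 3.88 nRPKM (median 2.19) in the deleted libraries, above KO at 1.18 and 1.201 and below control at 5.15 and 6.08. All 3 PEA3 genes had deleted levels between those of KO and control on average, and none was called in the pooled comparison (edgeR adjusted p = 0.864 for Etv1, 0.772 for Etv4 and 0.0949 for Etv5).

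Beyond Jun, the pooled comparison picked out few genes. Of 18671 genes tested, 102 were called (0.546%), 43 higher (0.23%) and 59 lower (0.316%) in the cJun-deleted libraries. A stricter reading asked that every library of one side lie above every library of the other in nRPKM: 149 genes were higher in this way (0.798%) and 161 lower (0.862%), whether called or not. Both conditions held for 53 genes, 22 higher (0.118%) and 31 lower (0.166%), and 48 of the 53 have a symbol. The median size of the log2 fold change was 0.63 among the 22 and 0.46 among the 31, and the smallest was 0.22 and 0.25. These errors come from the spread within genotypes. When all 6 deleted libraries were instead treated as replicates of 1 group and all 4 intact libraries as another, so that differences between genotypes entered the error, 5 genes were called: Jun, Eqtn, Gm7444, Tusc1 and Snapc3. Of the 53, Gm7444 and Rec8 met the low-count minimum for testing through deleted libraries only and Eqtn through intact libraries only, so that these 3 had to differ, and their calls support nothing. The 53 calls also depended on single libraries: 17 passed in all 10 fits with 1 library left out, and the number of the 53 kept per fit ran from 20 to 48. Without control 1 and DKO 1 together, the pair with the female pattern, 28 of the 53 remained called. In total, 36 genes were called without KO 2, 48 without control 2, 51 without KO 1, 55 without control 1, 57 without TKO 2 and 66 without TKO 1.

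**Figure D1:**
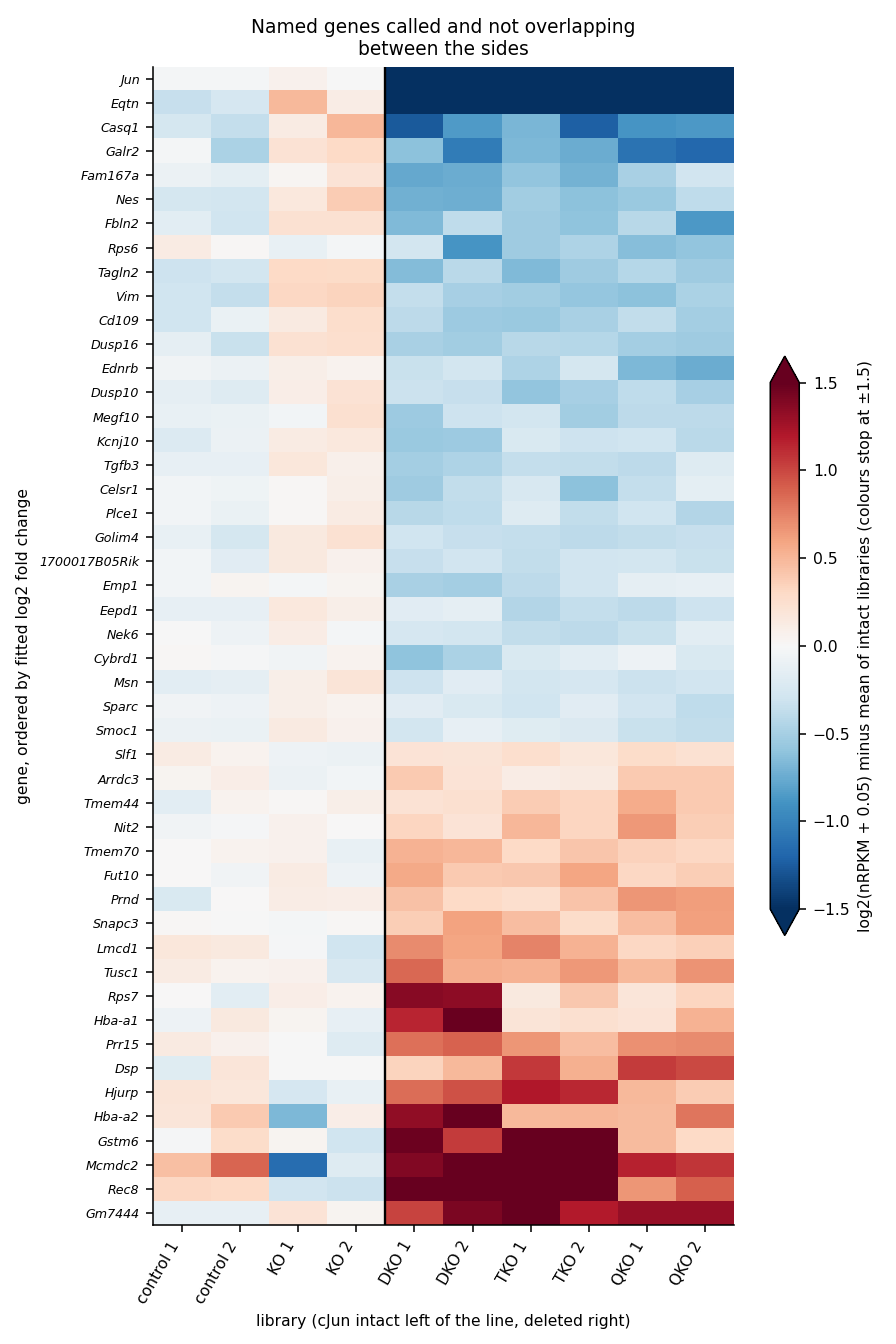
Level of each of the 48 named genes that were called and did not overlap between the sides, in each library, as log2(nRPKM + 0.05) minus the mean of the 4 intact libraries; colours stop at ±1.5. Jun and Eqtn are the darkest rows; many lower genes are redder in KO than in control among the intact columns, and the alpha-globins and Rps7 are deepest in the DKO columns.

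The genes lower in every deleted library fell mostly against KO. Taken apart, the mean of the deleted genotypes was called higher than KO at 51 genes (0.273%) and lower at 132 (0.707%), and against control higher at 19 (0.102%) and lower at 12 (0.0643%). Of the 31 consistent lower genes, 25 were called against KO only, 3 against both (Jun, Fam167a and Ednrb) and 3 against neither. In 29 of the 31 KO lay above control, and the difference between KO and control itself was called for 6 (Dusp16, Golim4, Nes, Tagln2, Vim and an unnamed identifier). Over all genes, KO against control gave 94 higher (0.503%) and 43 lower (0.23%). The median log2 fold change of the 31 was -0.54 against KO and -0.29 against control, beside -0.01 and 0.00 over all genes tested. The comparisons share the deleted libraries, so these values stand side by side and do not support each other.

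**Figure D2:**
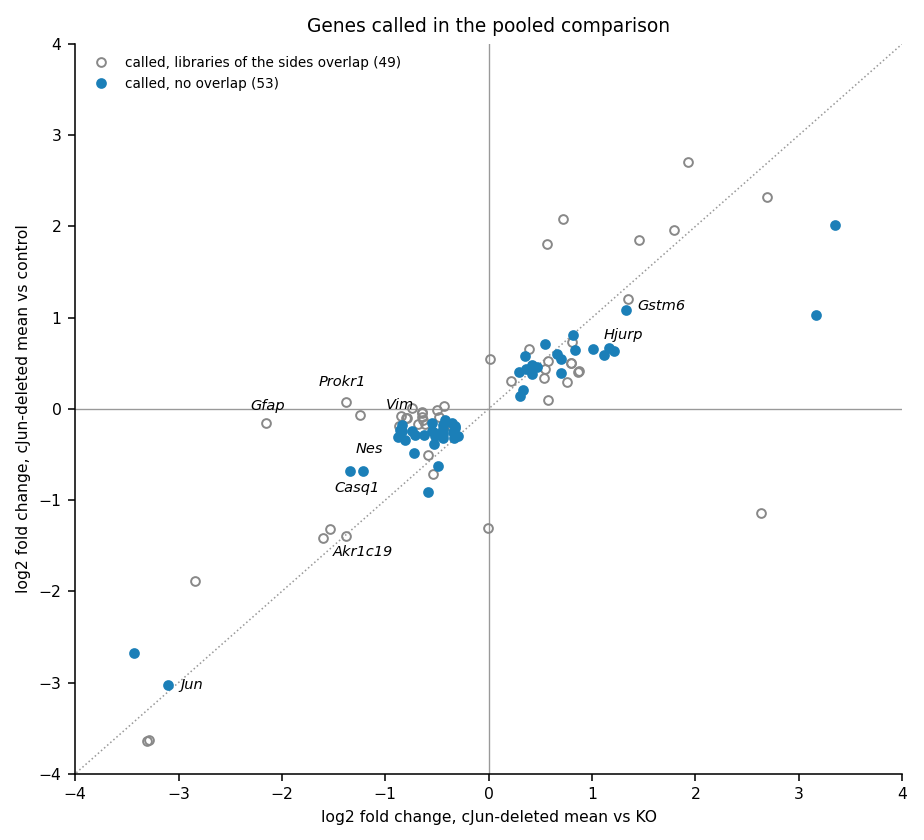
Each of the 102 called genes by its log2 fold change against KO (horizontal) and against control (vertical), filled where no library of one side overlapped the other; 2 genes lie beyond the plotted range of ±4. Jun lies near the dotted line of equal change, at -3.10 and -3.02, whereas Vim, Nes, Gfap and Prokr1 lie between -0.31 and 0.08 on the control axis.

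Fam167a and Ednrb were, with Jun, the lower genes called against both intact genotypes. Fam167a, a gene of little-known function, stood at 6.54 and 6.32 nRPKM in control, at 7.09 and 8.06 in KO, and at 4.08 to 5.72 (median 4.43) after cJun deletion. The deleted libraries stopped short of the lowest control, with QKO 2 nearest to it. Its log2 fold change was -0.60 ± 0.06 pooled (edgeR adjusted p = 0.000907), -0.73 ± 0.07 against KO and -0.48 ± 0.07 against control (adjusted p = 0.0328). Ednrb, the endothelin B receptor, which in brain is carried by astroglia and radial glia, read 37.0 and 36.2 nRPKM in control, 40.8 and 39.7 in KO, and 22.9 to 32.0 (median 29.2) in the deleted libraries. The lowest values were both QKO libraries, 24.04 and 22.9. Ednrb fell by 0.46 ± 0.04 on the log2 scale pooled (edgeR adjusted p = 0.000907) and by 0.39 ± 0.06 against control (adjusted p = 0.0268). Both genes were called in all 10 fits with 1 library left out.

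Nes, Vim and Tagln2 were lower in every deleted library than in any intact one. Nes, which encodes the stem cell intermediate filament nestin, stood at 22.5 and 22.3 nRPKM in control, 30.3 and 35.4 in KO and 16.2 to 20.8 (median 18.0) after cJun deletion. Vim, which encodes vimentin, the filament of radial glia and of many mesenchymal cells, read 152 and 145 in control, 232 and 236 in KO and 122 to 145 (median 131) in the deleted libraries. Tagln2, an actin-binding protein, read 14.9 and 15.3, then 22.8 and 22.7, then 11.7 to 14.0 (median 12.8). The deleted libraries lay well below KO in all 3 genes but close under control, and for Vim the highest deleted library, DKO 1, was within rounding of the lower control. The pooled log2 fold change was -0.59 ± 0.05 for Nes (edgeR adjusted p = 0.000511), -0.51 ± 0.05 for Vim (0.00067) and -0.54 ± 0.06 for Tagln2 (0.00249). Against control alone it was -0.31 ± 0.07 for Nes (adjusted p = 0.126), -0.18 ± 0.06 for Vim (0.419) and -0.24 ± 0.08 for Tagln2 (0.394), and none of these was called. All 3 pooled calls held in the 10 fits with 1 library left out, and none held in the model with 2 groups (adjusted p of 0.143, 0.228 and 0.164). In whole-brain RNA, fewer cells of a type and less RNA per cell cannot be told apart.

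A pair of phosphatases that switch off JNK and p38 kinases moved the same way. Dusp16 stood at 2.97 and 2.57 nRPKM in control, at 3.83 and 3.90 in KO and at 2.25 to 2.43 (median 2.30) in the deleted libraries. The 6 deleted values were tightly grouped below both controls. Its log2 fold change was -0.49 ± 0.06 (edgeR adjusted p = 0.00275), called in all 10 fits with 1 library left out, and -0.25 ± 0.07 against control (adjusted p = 0.31). Dusp10 read 1.55 and 1.48 in control, 1.82 and 1.98 in KO and 1.11 to 1.34 (median 1.24) after deletion. Its pooled change of -0.46 ± 0.08 (edgeR adjusted p = 0.0308) was lost in 9 of those 10 fits, in all but the one without QKO 1, with adjusted p from 0.0597 to 0.179, and DESeq2 gave 0.0624. Of the 18 genes of the JNK pathway list, from the MAP3K enzymes to the JNK scaffolds, these 2 were called lower (against 0.316% of all genes) and none higher. Mapk8 and Mapk10, which encode JNK1 and JNK3, had log2 fold changes of 0.04 ± 0.04 and 0.00 ± 0.04.

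Kcnj10 and Megf10 were also called lower. Kcnj10, the Kir4.1 channel through which astrocytes take up potassium, stood at 6.30 and 6.88 nRPKM in control, 7.97 and 8.15 in KO and 4.95 to 6.21 (median 5.68) after cJun deletion. TKO 1 lay just under control 1, and both DKO libraries were lowest. It fell by 0.39 ± 0.05 on the log2 scale (edgeR adjusted p = 0.00322), a call kept in all 10 fits with 1 library left out. Megf10, an engulfment receptor of astrocytes, read 3.53 and 3.56 in control, 3.70 and 4.51 in KO and 2.60 to 3.14 (median 2.90) in the deleted libraries, without overlap. Its pooled change was -0.41 ± 0.07 (edgeR adjusted p = 0.035). That call was lost in 8 of the 10 fits, all but those without KO 1 and DKO 2, with adjusted p from 0.0522 to 0.199.

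Fbln2, Cd109, Galr2 and Casq1 were called lower as well, each without overlap between the sides. Fbln2, the matrix protein fibulin-2, stood at 6.75 and 6.16 nRPKM in control, 8.89 and 8.86 in KO and 4.13 to 5.78 (median 5.10) after deletion, a log2 fold change of -0.58 ± 0.08 (edgeR adjusted p = 0.0118). Cd109, a membrane-anchored co-receptor that dampens TGF-beta signalling, read 0.816 and 0.951, 1.12 and 1.24, and 0.677 to 0.778 (median 0.708), a change of -0.50 ± 0.08 (adjusted p = 0.0233). Both genes showed the pattern of KO highest, control between and all deleted libraries lowest. Tgfb3, a TGF-beta ligand, Sparc and Smoc1, related calcium-binding matrix proteins, and Celsr1, a cadherin of planar cell polarity, were also called and did not overlap, and were named after their values were seen, with log2 fold changes of -0.39 ± 0.07, -0.26 ± 0.04, -0.25 ± 0.04 and -0.38 ± 0.07. Galr2, a receptor for the neuropeptide galanin, read 1.04 and 0.751 in control, 1.24 and 1.33 in KO and 0.445 to 0.677 (median 0.555) in deleted libraries, a change of -0.95 ± 0.14 (edgeR adjusted p = 0.0118). Casq1, the calcium-storage protein of the muscle sarcoplasmic reticulum, read 0.988 and 0.925, 1.32 and 1.72, and 0.470 to 0.730 (median 0.631), a change of -1.01 ± 0.15 (adjusted p = 0.0118). In Fbln2, Cd109, Galr2 and Casq1 alike, the control libraries lay nearer to the deleted ones than KO did.

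Each of these 4 rule-named calls was lost without some single library. For Fbln2 these were control 1 (edgeR adjusted p = 0.0645), KO 1 (0.0626), KO 2 (0.0668), TKO 1 (0.0515) and TKO 2 (0.0596). Cd109 lost its call without control 1 (0.0507), control 2 (0.169), KO 1 (0.0712), KO 2 (0.14), TKO 1 (0.0836) and TKO 2 (0.0754). For Galr2 they were control 1 (0.0727), KO 1 (0.0527), KO 2 (0.067) and TKO 2 (0.0541), and for Casq1 control 1 (0.0682), control 2 (0.0573) and KO 2 (0.0708). Of the genes named afterwards, Tgfb3 and Smoc1 kept the call only without DKO 2, QKO 1 and QKO 2, Sparc only without DKO 1, TKO 2 and QKO 1, and Celsr1 only without DKO 2, TKO 1 and QKO 2, and the other fits gave adjusted p of 0.0501 to 0.233.

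**Figure D3:**
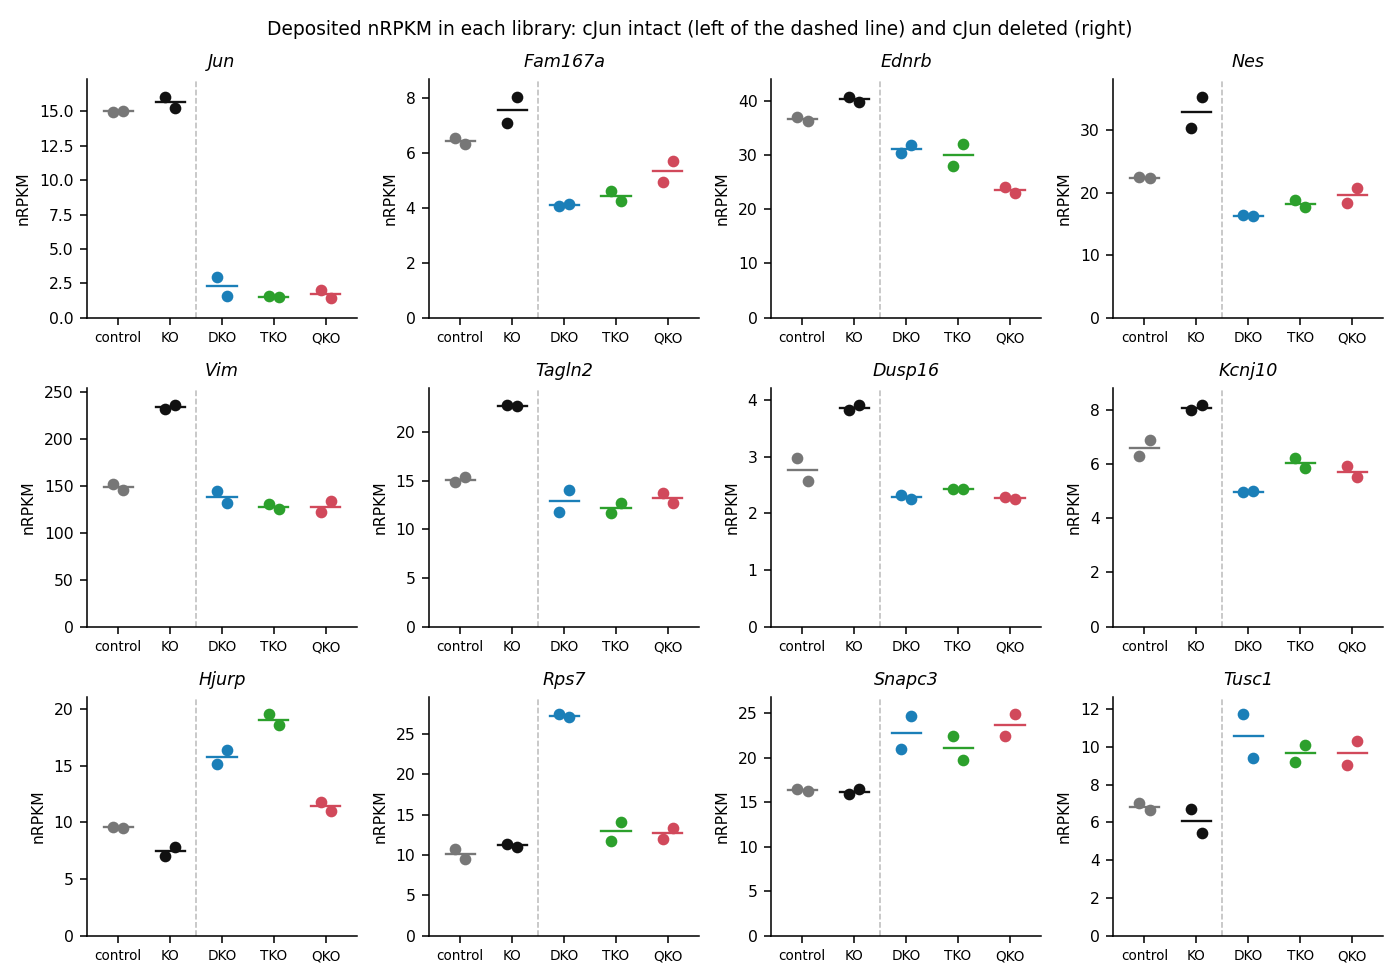
Deposited nRPKM of 12 genes in each library by genotype; points are libraries, short lines are the mean of the 2, and the dashed line divides intact from deleted. Jun falls to between 1.44 and 2.94 in all 6 deleted libraries; Vim, Tagln2 and Nes are highest in KO, and Rps7 rises mainly in DKO.

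Of the 22 genes that were called and higher in every deleted library, 6 were called against both KO and control, 12 against KO only, 1 (Tmem44) against control only and 3 against neither. The 6 were Gm7444, Rec8, Rps7, Hjurp and the unnamed identifiers ID212427 and ID78605. Gm7444 and Rec8 met the low-count minimum through deleted libraries only, so their place among the 6 supports nothing. Hjurp, the chaperone that loads the centromeric histone CENP-A, was among those called against both. It stood at 9.62 and 9.51 nRPKM in control, 7.06 and 7.82 in KO and 10.99 to 19.5 (median 15.8) after deletion. TKO was highest at 19.5 and 18.6, DKO read 15.2 and 16.4, and QKO, at 11.8 and 10.99, lay only a little above control. The pooled log2 fold change was 0.84 ± 0.05 (edgeR adjusted p = 4.73e-06), the change against control was 0.66 ± 0.06 (adjusted p = 0.000572), and the pooled call held in all 10 fits with 1 library left out. The unnamed identifiers ID212427 and ID78605 ran parallel to Hjurp, with ratios between ID78605 and Hjurp of 1.71 to 1.93 across the libraries, and the 3 are counted separately among the 53 although they may share reads.

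Tmem70, an assembly factor of the mitochondrial ATP synthase, was raised evenly. It read 12.4 and 12.9 nRPKM in control, 13.0 and 11.5 in KO and 15.3 to 17.9 (median 16.2) in deleted libraries, a log2 fold change of 0.40 ± 0.05 (edgeR adjusted p = 0.00784, but 0.0518 without KO 2). Gstm6, a glutathione transferase, read 0.499 and 0.624, 0.524 and 0.403, and 0.634 to 2.06 (median 1.30), a change of 1.201 ± 0.17 (adjusted p = 0.0105, but 0.0588 without control 1 and 0.0652 without KO 2). Its QKO libraries, 0.726 and 0.634, lay close to the controls, and the DKO and TKO libraries well above them. Arrdc3, an arrestin-domain protein that directs receptors to degradation, rose by 0.27 ± 0.04 (edgeR adjusted p = 0.0173), the smallest change among the rule-named higher genes. Its call was kept in only 4 of the 10 fits with 1 library left out, being lost without either control (0.12 and 0.0733), either KO (0.0989 and 0.0726) and either TKO library (0.0501 and 0.0638).

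The remaining higher genes named by rule are Prr15, Lmcd1, Prnd, Fut10, Nit2 and Tmem44, with log2 fold changes from 0.35 for Tmem44 to 0.74 for Prr15. Prnd encodes doppel, a relative of the prion protein, Fut10 a fucosyltransferase and Nit2 an omega-amidase. Prnd stood at 1.24 and 1.47 nRPKM in control, 1.58 and 1.57 in KO and 1.74 to 2.35 (median 1.99) after deletion. Nit2 read 10.4 and 10.7, 11.3 and 10.8, and 12.4 to 16.97 (median 13.7). In both of these the deleted libraries all lay above the intact ones. The 2 intact genotypes were close together for Nit2. For Prnd, KO lay nearer to the deleted libraries than control did, with log2 fold changes of 0.35 against KO and 0.58 against control, neither called. Tmem44 read 21.1 and 24.5, 23.7 and 25.0, and 27.3 to 34.7 (median 30.1), highest in QKO. Prr15 kept its call in 3 of the 10 fits with 1 library left out, as did Prnd and Nit2, whereas Lmcd1 and Fut10 kept it in 5 and Tmem44 in 7. Each was lost without KO 2 (edgeR adjusted p of 0.147 for Prr15, 0.142 for Lmcd1, 0.147 for Prnd, 0.129 for Fut10, 0.162 for Nit2 and 0.051 for Tmem44) and without control 1 (0.113, 0.114, 0.184, 0.102, 0.146 and 0.0672). Control 2 also ended all of these calls except that of Tmem44 (0.142, 0.137, 0.0637, 0.137 and 0.133). Further losses came without KO 1 for Prr15 (0.0913), Prnd (0.146), Fut10 (0.0502), Nit2 (0.113) and Tmem44 (0.0691), without DKO 1 for Prr15 (0.0564), Lmcd1 (0.0593), Prnd (0.0715) and Nit2 (0.0555), without TKO 1 for Prr15 (0.0823), Lmcd1 (0.0807), Prnd (0.0522) and Nit2 (0.0971), and without TKO 2 for Prr15 (0.0549), Prnd (0.11), Fut10 (0.0828) and Nit2 (0.0553).

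Some consistent genes were detected at a low level and are given in raw counts. Gm7444, a predicted gene on chromosome 9, had 0 counts in each control, 3 and 1 in KO, and 11 to 21 in the deleted libraries, 4 counts in all on the intact side against 86. Rec8, the meiotic cohesin subunit, had 6 and 6 counts in control, 3 and 2 in KO, 25 and 15 in DKO, 60 and 55 in TKO, and 8 and 11 in QKO. Mcmdc2, another meiotic recombination gene, had 17 and 25, 2 and 8, and 28 to 63 counts. These genes were called and did not overlap between the sides in nRPKM, and were named after their values were seen. The call of Mcmdc2 was lost without control 1 (edgeR adjusted p = 0.0763), control 2 (0.056), KO 1 (0.0832) or TKO 1 (0.0625).

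The alpha-globin genes Hba-a1 and Hba-a2 and the ribosomal gene Rps7 were higher in every deleted library, and highest in DKO. Hba-a1, an alpha-globin gene of red blood cells, stood at 63.1 and 73.3 nRPKM in control, 68.4 and 61.0 in KO, 146 and 185 in DKO, 75.8 and 78.2 in TKO, and 76.5 and 94.8 in QKO. The gap between the sides, from 73.3 to 75.8, was thus narrow outside DKO. Hba-a2 read 113 and 131 in control, 62.1 and 107 in KO and 138 to 315 (median 157) in deleted libraries. The pooled log2 fold change was 0.63 ± 0.08 for Hba-a1 (edgeR adjusted p = 0.00626) and 0.86 ± 0.13 for Hba-a2 (0.0143). Hba-a2 lost its call without control 1 (0.0875), control 2 (0.056), TKO 1 (0.0553) and TKO 2 (0.0626). Of 7 erythroid markers tested, 4 were called higher (against 0.23% of all genes) and none lower, with a median of 0.65 beside 0.00 over all genes. The beta-globins Hbb-b1 and Hbb-b2 among the 4 hold the same counts and are 1 measurement, whose sides overlapped and whose call was lost without KO 1 (edgeR adjusted p = 0.074), KO 2 (0.0518) and TKO 2 (0.0549). The summed erythroid markers also overlapped, running from 306 to 466 nRPKM in intact libraries and from 442 to 605 in TKO and QKO, and were 854 and 1001 in DKO. Rps7, a protein of the small ribosomal subunit, read 10.7 and 9.52 in control, 11.4 and 11.03 in KO, 27.4 and 27.1 in DKO and 11.8 to 14.1 in TKO and QKO. Its pooled change was 0.63 ± 0.07 (edgeR adjusted p = 0.00205). In a fit without both DKO libraries, chosen after the data were seen, the log2 fold changes were 0.29 for Hba-a1 (adjusted p = 0.141), 0.55 for Hba-a2 (0.123) and 0.27 for Rps7 (0.228), and no longer called. Ribosomal protein genes and globins have near-identical copies, so their counts are uncertain.

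Several consistent genes lie close to Jun on chromosome 4. Among the 50 tested genes on each side of Jun, 4 of 100 were called (4%, against 0.546% of all genes), and all 4 did not overlap between the sides; of these, Eqtn met the low-count minimum through intact libraries only. Eqtn, an acrosomal protein gene 3 tested genes from Jun, had 12 and 13 counts in control, 30 and 16 in KO, and 0 to 3 in the deleted libraries. Tusc1, a gene of unknown biochemical role 9 tested genes away, stood at 7.02 and 6.65 nRPKM in control, 6.71 and 5.46 in KO, and 9.05 to 11.7 (median 9.75) after deletion. Snapc3, a subunit of the complex that starts small nuclear RNA transcription, 33 tested genes away, read 16.5 and 16.3, 15.9 and 16.5, and 19.7 to 24.9 (median 22.5). In both Tusc1 and Snapc3 the intact genotypes lay together and all 6 deleted libraries stood clear of them.

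The log2 fold change was 0.62 ± 0.09 for Tusc1 (edgeR adjusted p = 0.00927) and 0.47 ± 0.06 for Snapc3 (0.00784), and for Eqtn it was -3.05 ± 0.45 (0.0118). Rps6, a ribosomal protein gene 21 tested genes away, read 5.28 and 4.90 nRPKM in control, 4.498 and 4.74 in KO, and 2.60 to 3.99 (median 3.26) after deletion, a change of -0.56 ± 0.11 (adjusted p = 0.0489) that only the fits without DKO 1 and DKO 2 kept among the 10 with 1 library left out (0.0679 to 0.226 in the others). Snapc3 kept its call in all 10 such fits, Tusc1 lost it without control 2 (0.0552) and KO 2 (0.051), and Eqtn without control 1 (0.0549), control 2 (0.0664) and KO 1 (0.0694). Directions were mixed, 2 higher and 2 lower. A further 7 genes of the 100 did not overlap but were not called. Cntln, Slc24a2, Mtap and Gm12693 were lower, and Caap1, Gm12657 and E130114P18Rik were higher. In all, 11 of the 100 did not overlap, whereas 0.798% of all genes did so in the higher direction and 0.862% in the lower. Jun, Tusc1 and Snapc3 were also called by the model with 2 groups. The same window held 0 called genes around Cop1, 1 around Etv1 (Rps7) and 1 around Etv5 (Tmem44). In these windows 2, 3 and 2 of 100 genes did not overlap. The labels do not give the strain of the DNA that flanks the deleted alleles, and its part in these differences was not tested.

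**Figure D4:**
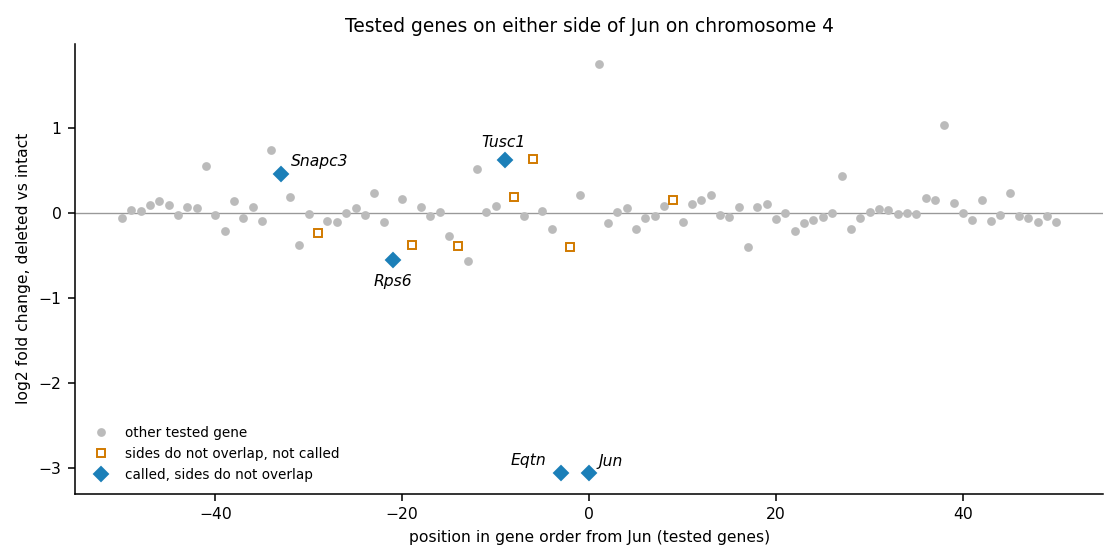
Log2 fold change of deleted against intact libraries for the 50 tested genes on each side of Jun, in gene order; diamonds were called, open squares did not overlap between the sides without being called. Snapc3, Rps6, Tusc1 and Eqtn all lie on one side of Jun, within 33 tested genes, and most other neighbours lie near 0.

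No other AP-1 gene was called. Of 18 tested members of the AP-1 family (Jun, Fos, ATF and Maf proteins), only Jun was called, and lower (against 0.316% of all genes). Junb stood between 1.94 and 2.17 nRPKM in intact and between 1.86 and 2.61 (median 2.27) in deleted libraries, a log2 fold change of 0.10 ± 0.09. Jund, the most abundant Jun paralogue here, read 39.0 to 47.6 in intact and 40.4 to 54.8 (median 41.9) in deleted libraries, a change of 0.00 ± 0.08. Fos ran from 0.709 to 0.865 in intact and from 0.611 to 1.00 in deleted libraries. For all 3 the sides overlapped. The median over the 18 was 0.00, as over all genes.

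Textbook AP-1 targets were called at 3 of 23 tested members, all lower (Egfr, Gfap and Vim), against 0.546% of all genes. An unadjusted p under 0.05 was reached by 9 of the 23, against 9.27% of all genes tested. Of these 9, 8 were lower and 1 higher, against 5.21% and 4.06% of all genes. The list was mixed in direction, with 13 fitted values below 0 and 10 above, and its median was -0.07. Ccnd1, Cd44 and Timp1 were not called, with log2 fold changes of -0.22 ± 0.05, -0.14 ± 0.08 and -0.31 ± 0.21. Egfr, the epidermal growth factor receptor of neural progenitors, stood at 4.74 and 5.16 nRPKM in control, 7.55 and 8.30 in KO and 4.17 to 5.15 (median 4.69) after deletion. Gfap, the astrocyte filament protein, read 5.16 and 4.87, 21.3 and 18.3, and 2.12 to 7.10 (median 4.49). In both, the deleted libraries overlapped control, and KO stood apart from all. The pooled change was -0.44 ± 0.06 for Egfr (edgeR adjusted p = 0.00626, but 0.051 without KO 2) and -1.15 ± 0.16 for Gfap (0.0105, but 0.0566 without KO 1). Against control it was -0.10 ± 0.07 and -0.16 ± 0.21, neither called.

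An exact AP-1 site was looked for in the promoters of the consistent genes, as the 7 bases TGAGTCA or its reverse complement TGACTCA within 250 bases before the start in RefSeq (GRCm38.p6). It was present in 2 of the 21 lower genes with a promoter entry (9.52%), in 0 of 16 higher genes, and in 521 of the 13097 tested genes with an entry (3.98%). The 8 bases TGACGTCA, the site that Jun and ATF pairs prefer and that is its own reverse complement, occurred in 1 of the 16 higher genes (6.25%), in 0 of the 21 lower and in 370 of the 13097 (2.83%). The stretches with a match are printed because these 3 are the promoters of consistent genes that hold a match, with the matched bases in capitals.
Emp1, chr6:135362746-135362832, plus strand: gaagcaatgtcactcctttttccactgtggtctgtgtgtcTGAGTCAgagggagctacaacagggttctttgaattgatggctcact
Cybrd1, chr2:71117804-71117865, plus strand: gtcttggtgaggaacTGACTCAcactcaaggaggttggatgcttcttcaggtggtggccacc
Lmcd1, chr6:112273588-112273675, plus strand: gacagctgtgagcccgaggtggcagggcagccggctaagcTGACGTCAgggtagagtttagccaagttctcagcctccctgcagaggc
A match is a description of letters and not a binding site.

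Emp1, a tetraspan membrane protein, stood at 6.29 and 6.65 nRPKM in control, 6.35 and 6.65 in KO, and 4.54 to 5.97 (median 5.14) in the deleted libraries. Cybrd1, an iron-reducing cytochrome, read 5.07 and 4.94, 4.80 and 5.18, and 3.28 to 4.72 (median 4.26). Control and KO were alike in both, and DKO was lowest. The pooled log2 fold change was -0.32 ± 0.05 for Emp1 (edgeR adjusted p = 0.0168) and -0.30 ± 0.05 for Cybrd1 (0.0398). Both were named after their values were seen. Emp1 lost its call without control 1 (0.0709), control 2 (0.137), KO 1 (0.0789), KO 2 (0.129) and TKO 1 (0.067), and Cybrd1 kept it only without DKO 2 and QKO 1 (0.0752 to 0.251 in the other 8 fits). Lmcd1, a LIM-domain repressor of GATA factors, read 1.95 and 1.91, 1.70 and 1.40, and 2.14 to 2.91 (median 2.56), a change of 0.55 ± 0.09 (edgeR adjusted p = 0.0262). Without both DKO libraries none of the 3 was called (adjusted p of 0.143, 0.296 and 0.0734).

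Glial gene lists held most of the calls among the lists, and the 7 glial genes called in them were each called against KO and not against control. The lists share members. Egfr, Gfap, Nes, Notch1, Tnc and Vim each stand in more than 1 list, so the calls of different lists are not separate. Of 20 radial glia genes, 5 were called lower (Egfr, Nes, Notch1, Tnc and Vim), against 0.316% of all genes, and none higher. An unadjusted p under 0.05 was reached by 14 in the lower direction and 1 in the higher, against 5.21% and 4.06% of all genes, and the median log2 fold change was -0.21, beside 0.00 over all genes tested. Tnc, the matrix protein tenascin-C of the stem cell niche, read 46.5 and 42.4 nRPKM in control, 58.1 and 68.0 in KO and 33.2 to 47.5 (median 39.1) after deletion. Notch1, the receptor that maintains progenitors, read 8.66 and 8.95, 11.5 and 12.4, and 6.68 to 9.14 (median 8.01). In both, the deleted libraries overlapped control and stayed below KO. Their pooled changes were -0.43 ± 0.08 (edgeR adjusted p = 0.042) and -0.39 ± 0.07 (0.0345). Tnc kept its call only without DKO 2 and TKO 1 (0.0505 to 0.238 in the other 8 fits) and Notch1 only without DKO 1, DKO 2 and QKO 1 (0.0573 to 0.184 in the other 7). Among the radial glia genes that were not called, Hopx, at -0.34 ± 0.07, did not overlap in the lower direction and Fam107a, at 0.52 ± 0.16, in the higher one. Hes5, Gli3 and Sox9 had log2 fold changes of -0.26, -0.24 and -0.22, and Fabp7 and Prom1 of 0.03 ± 0.05 and 0.01 ± 0.05.

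Of 14 reactive glia genes 4 were called lower (Gfap, Nes, Tnc and Vim), against 0.316% of all genes, and the median was -0.06. The list was mixed in direction, with 7 fitted values below 0 and 7 above. An unadjusted p under 0.05 was reached by 4 members lower and 3 higher, against 5.21% and 4.06% of all genes. Cp, not called, was higher in every deleted library (3.78 to 4.35 nRPKM) than in any intact one (3.22 to 3.73). Among 19 astrocyte genes 2 were called lower (Aldh1l1 and Gfap), against the same 0.316%, with a median of -0.02. Aldh1l1, a folate enzyme used as an astrocyte marker, read 24.1 and 24.7 nRPKM in control, 38.0 and 35.3 in KO, and 22.2 to 27.0 (median 23.1) in deleted libraries. Only KO stood apart, since deleted and control libraries overlapped. Its change of -0.35 ± 0.05 (edgeR adjusted p = 0.0118) was lost without control 1 (0.0672), control 2 (0.0898), KO 1 (0.0806) and TKO 2 (0.0563), and was -0.05 ± 0.07 against control. An unnamed identifier ran parallel to Aldh1l1 and another to Vim, so these genes may share reads with copies.

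Oligodendrocyte precursor genes stood differently against the 2 intact genotypes. None of the 15 was called in the pooled comparison by edgeR, 3 were called lower by DESeq2, and 10 reached an unadjusted p under 0.05, all lower, against 5.21% of all genes. All 15 fitted values were below 0, as were 50.3% of those of all genes tested, and their median was -0.17. Olig2, the factor that specifies the lineage, stood at 11.9 and 13.0 nRPKM in control, 28.04 and 25.1 in KO, 22.9 and 19.7 in DKO, 18.4 and 19.5 in TKO, and 11.6 and 10.998 in QKO. The deleted side spanned the whole distance from near KO to below control. Olig2 changed by -0.69 ± 0.07 against KO (edgeR adjusted p = 0.000524) and by 0.42 ± 0.07 against control (0.0667). Olig1, its neighbour and partner, changed by -0.86 ± 0.10 against KO (0.00173) and by 0.36 ± 0.11 against control (0.345). Both were named after their values were seen.

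**Figure D5:**
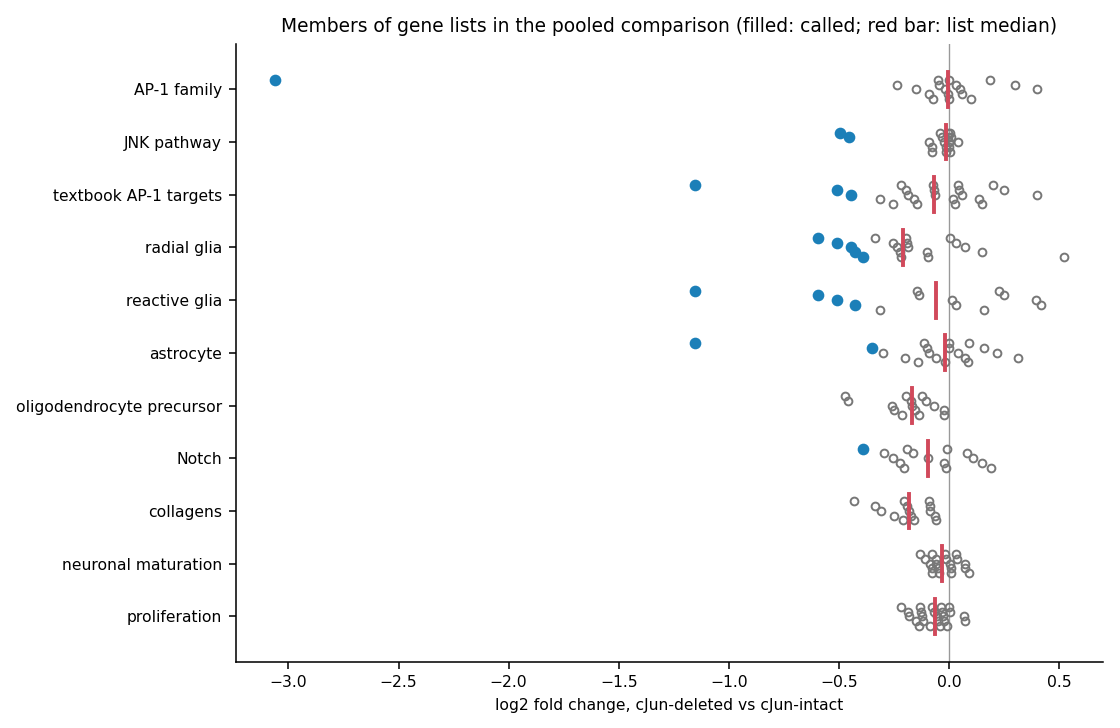
Log2 fold change of deleted against intact libraries for the tested members of 11 gene lists; filled points were called, red bars are list medians. Calls lie to the left of 0 in every list shown that has any; the radial glia, oligodendrocyte precursor and collagen medians lie between -0.17 and -0.21, and the AP-1 family median at 0.00 with Jun alone at -3.06.

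Collagens, made mainly by meningeal and vascular cells, gave no call by edgeR or DESeq2 among 15 tested, with 8 at an unadjusted p under 0.05, all lower (against 5.21% of all genes), 15 of 15 fitted values below 0 and a median of -0.18. Meningeal markers summed to between 365 and 485 nRPKM in intact and 351 and 470 in deleted libraries. Of 6 receptor signalling genes known from an earlier look at COP1 loss in these data, 2 were called lower, Galr2 and Prokr1 (against 0.316% of all genes). In KO against control 5 of the 6 were called higher, with a median log2 fold change of 1.21. KO is part of the intact side, so a lower pooled value of these genes was partly set in advance. Prokr1, a prokineticin receptor, read 0.902 and 1.01 in control, 2.55 and 2.68 in KO and 0.824 to 1.19 (median 1.01) after deletion, so that deleted and control libraries overlapped fully. Its pooled change of -0.65 ± 0.09 (edgeR adjusted p = 0.00843, but 0.0573 without control 2 and 0.0518 without KO 2) was -1.38 ± 0.10 against KO and 0.08 ± 0.12 against control. The Notch list had 1 call in 15, Notch1, which was lower (against 0.316% of all genes). An unadjusted p under 0.05 was reached by 7 of the 15, all lower (against 5.21% of all genes). DESeq2 called 2 of them lower, and Dll1, not called by edgeR, did not overlap in the lower direction. With the precursor and collagen lists, 22 of the 30 gene lists had no call by edgeR. They covered, among others, neurons, brain regions, cell division, cell death, immediate early genes, growth factor feedback, hedgehog, interferon, myelin, sterols and hypoxia, and of their 291 members 54 had an unadjusted p under 0.05 (against 9.27% of all genes) and DESeq2 called 3, all oligodendrocyte precursor genes.

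The 49 called genes whose libraries overlapped between the sides were mostly genes that differed within a side. KO differed from control for 19 of them, DKO, TKO and QKO differed among themselves for 21, and one or the other held for 38. Over all genes, 128 differed among the deleted genotypes (0.686%). The identifier 2610507I01Rik, a transcript of unknown function, stood between 5.86 and 6.72 nRPKM in all 4 intact libraries, at 6.67 and 6.43 in TKO, 3.40 and 3.44 in DKO and 0.617 and 0.663 in QKO. Akr1c19, an aldo-keto reductase with close paralogues, read 0.685 to 0.877 in intact libraries, 0.0464 to 0.235 in DKO and TKO, and 2.23 and 2.35 in QKO. In both, libraries of 1 genotype agreed closely while the deleted genotypes lay on different levels, so that the pooled log2 fold changes of -1.38 ± 0.06 (edgeR adjusted p = 1.04e-06) and -1.51 ± 0.21 (0.00915) describe no single deleted level. Both were named after their values were seen.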

How the data were processed

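Polyadenylated RNA from embryonic brain was sequenced in 10 libraries as 75 bp paired reads from 1 microgram of total RNA, 5 libraries to a lane, per the labels' protocols. Reads were aligned with GSNAP to build NCBIM37, per the submitters' processing notes. The deposited count is the number of uniquely aligned reads per gene, and the deposited nRPKM is that count as RPKM after a library size factor, both per the file headers. For the annotation release and strand handling, the sources used here give nothing. Files list 28059 Entrez identifiers, of which RefSeq (GRCm38.p6, used for names, gene order and promoters) named 24998. Counts agreed less closely within each genotype than repeat deposits of 1 library would, with a chi-square per degree of freedom of 7.51 to 19.5.

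Counts were tested with edgeR 4.0.16 (quasi-likelihood, TMM, filterByExpr, R 4.3.3) on 5 genotype means over all 10 libraries, as the mean of DKO, TKO and QKO against the mean of control and KO, with Benjamini-Hochberg adjustment over 18671 genes and 9388 set aside. The fit had 5 residual degrees of freedom and was tested on simulated data, in which the genotypes of a side shared the same mean. That simulation therefore does not cover genes that differ between genotypes within a side. Errors are standard errors. Nothing states that libraries came from separate litters, so p-values cover only the spread of these libraries, part of which may be technical. Sides were called not overlapping on nRPKM. The comparison, the 30 gene lists and the 13 marker lists were chosen with earlier results of these data known, so no list is independent support. Genes were named by rule: Jun, Cop1, Etv1, Etv4 and Etv5, up to 15 genes each way with the largest change among those called, not overlapping, with a symbol and at 1 nRPKM or more in the higher side, and list members called. Other genes are stated as named after their values were seen. Alternatives were DESeq2 1.42.0, other size factors and count filters, a Xist or HOX covariate, a model with 2 groups, agreement on TMM-scaled CPM, and fits without 1 library, without both high-Xist libraries or, added after seeing the data, without both DKO libraries.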

Additional observations from a re-analysis of the deposited data

Results flagged for a closer look

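Among the rule-named genes, 7 differed among DKO, TKO and QKO beyond the spread within genotypes in edgeR's quasi-likelihood test, so that 1 pooled level does not describe them. Rps7 (adjusted p = 0.00055) and Hba-a1 (0.00208) were highest in DKO, Hjurp (0.00142) was highest in TKO and lowest in QKO, and Gstm6, at an adjusted p that rounds to 0.05 and lies just under it, was lowest in QKO. Ednrb (0.0436) was lowest in QKO. Etv1 (0.0018) and Etv4 (0.00184) were lowest in DKO and highest in QKO.

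In each side, 41 genes were looked at for a single library far from the rest, 82 groups in all, and chance flags about 1 in 20. There were 2 such libraries. Megf10 read 4.51 nRPKM in KO 2, against 3.53 to 3.70 in the other intact libraries, and Aldh1l1 read 27.0 nRPKM in DKO 2, against 22.2 to 23.6 in the other deleted libraries.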

How the results depend on the processing

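The main counts of 102 genes called in the pooled comparison, 53 of them not overlapping, 183 against KO, 31 against control, 137 in KO against control and 128 among the deleted genotypes moved as follows. DESeq2 called 175 pooled, 93 against control and 240 in KO against control, and was not run among the deleted genotypes. Without a low-count filter the counts were 218, 84, 358, 150, 300 and 412 in that order, and with a mean CPM of at least 1 the last was 82. Without both high-Xist libraries 17 genes were called against control and 40 in KO against control, and with a Xist covariate 15 and 63. The 2-group model called 5 pooled, all 5 not overlapping. Leaving out 1 library gave 36 to 149 pooled, 21 to 77 not overlapping, 44 to 298 against KO, 9 to 69 against control, 23 to 203 in KO against control and 46 to 144 among the deleted genotypes. Other counts stayed within 1.5 times. A lone library left in a genotype is assumed to vary like the others.

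Of the 53 genes, 50 remained called by DESeq2, 53 with the HOX covariate, 47 with the Xist covariate, 42 without DKO and 28 without the high-Xist libraries. Of 41 rule-named genes the call or its absence was the same in 7 with the 2-group model, in 27 without the high-Xist libraries and in 34 without DKO. No rule-named gene that was called changed direction in any of the 19 settings. Etv1, not called, was at -0.00263 in the 2-group model and between -0.0326 (without KO 1) and 0.154 (without KO 2) on the log2 scale with 1 library left out, and Etv4, not called, at 0.17 without DKO; the cause was not tested. No paired analysis was possible because the labels carry no replicate numbers.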

Other observations

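Some genes called in the pooled comparison were split between genotypes, or between libraries of 1 genotype, in ways the pooled value hides. Ubb-ps, a ubiquitin pseudogene that may share reads with its parent, stood at 1.69 to 2.17 nRPKM in the 4 intact libraries and at 1.56 and 2.05 in TKO, but at 10.6 and 13.2 in DKO and 10.9 and 25.8 in QKO. Aph1c, a subunit of gamma-secretase with a close paralogue, read 0.729 to 0.888 in intact libraries and 2.06 to 2.46 in 5 of the deleted libraries, while TKO 1 read 0.779 and TKO 2 read 2.22. Sycp1, a protein of the meiotic synaptonemal complex, varied within control (0.984 and 0.338) and within KO (0.180 and 0.904), was at or below 0.0671 in DKO and TKO, and read 0.500 and 0.419 in QKO. Car3, a carbonic anhydrase of muscle and fat, and 3110053B16Rik were both raised in DKO and TKO, with Car3 at 2.23 to 3.03 against 0.426 to 1.44 in intact libraries, while in QKO they read 0.637 and 0.950 and 1.13 and 1.68. The call of Sycp1 was lost in 7 of the 10 fits with 1 library left out (edgeR adjusted p from 0.0556 to 0.199), all but those without control 2, KO 1 and DKO 2. Aph1c lost its call without control 1 (0.143), control 2 (0.128), KO 1 (0.136) and KO 2 (0.143), and Car3 without control 2 (0.0697). These genes were named after their values were seen.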
